A study of Homo sapiens with 6 samples.

Results

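CKAP4, ZNF213, SNX30, METRNL, TMEFF1, SBK1, LDLRAD3 and FBXW5 are 8 genes of 23686 in the deposited tables whose RNA was higher with each of 2 LGR6 siRNAs than with a control siRNA. They were chosen by that measurement in these same libraries, by gene symbol, so their rise over the control is a description here and carries no test. The data are RNA sequencing of 6 libraries from A427 and HCC15, established human non-small cell lung carcinoma lines. In each line, 1 library came from cells transfected with LGR6 siRNA 2 (labelled LGR6 siRNA_no2), 1 with LGR6 siRNA 4 (LGR6 siRNA_no4) and 1 with the control (Tax siRNA), all in RPMI with 5% fetal bovine serum and all taken 48 h after transfection. The labels give both lines as wild type and are silent on separate cultures. With 1 library for each line and siRNA, the spread behind each p-value below is the disagreement between lines or between siRNAs, which may be technical, and not one between replicates.

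LGR6 sits at the cell surface and binds R-spondins, which enhance Wnt signalling by keeping Wnt receptors at the membrane. The 8 genes belong to no single pathway. CKAP4 (also called CLIMP-63) is a membrane protein that shapes sheets of the endoplasmic reticulum and, at the cell surface, is a receptor for the secreted Wnt antagonists DKK1 and DKK3. LDLRAD3 is a membrane protein of the LDL receptor type, TMEFF1 a membrane protein with follistatin and EGF domains, and METRNL a secreted relative of meteorin. SNX30 is a sorting nexin that acts with SNX4 in endosomal traffic, FBXW5 is a substrate receptor of cullin ubiquitin ligases, SBK1 is a serine/threonine kinase and ZNF213 is a zinc finger protein with KRAB and SCAN domains.

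RefSeq promoter sequences (GRCh38.p14, a fixed window around the annotated start) were matched for 6 of the 8 genes, by symbol. SNX30 and SBK1 were not matched. Because the 8 genes moved together, the promoters of CKAP4, ZNF213 and METRNL are shown, the most and the least GC-rich of the 6 and one with many GC boxes. The CKAP4 window is chr12:106247971-106248270 on the minus strand, the ZNF213 window chr16:3134779-3135078 on the plus strand and the METRNL window chr17:83080896-83081195 on the plus strand. Capitals mark matches, on either strand, to the GC box (GGGCGG) and the CCAAT box (CCAAT), the motifs of those searched that were found.
CKAP4: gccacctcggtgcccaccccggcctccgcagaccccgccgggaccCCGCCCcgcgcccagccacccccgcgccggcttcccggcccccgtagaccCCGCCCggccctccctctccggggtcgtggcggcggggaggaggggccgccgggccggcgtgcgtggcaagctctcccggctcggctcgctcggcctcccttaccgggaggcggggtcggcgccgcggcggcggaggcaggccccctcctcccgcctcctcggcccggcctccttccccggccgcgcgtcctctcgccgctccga
ZNF213: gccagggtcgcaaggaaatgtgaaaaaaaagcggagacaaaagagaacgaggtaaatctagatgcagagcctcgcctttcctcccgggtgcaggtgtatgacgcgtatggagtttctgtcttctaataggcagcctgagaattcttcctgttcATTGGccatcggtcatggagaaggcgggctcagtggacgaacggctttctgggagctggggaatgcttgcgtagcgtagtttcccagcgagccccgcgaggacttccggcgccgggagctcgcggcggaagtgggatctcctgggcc
METRNL: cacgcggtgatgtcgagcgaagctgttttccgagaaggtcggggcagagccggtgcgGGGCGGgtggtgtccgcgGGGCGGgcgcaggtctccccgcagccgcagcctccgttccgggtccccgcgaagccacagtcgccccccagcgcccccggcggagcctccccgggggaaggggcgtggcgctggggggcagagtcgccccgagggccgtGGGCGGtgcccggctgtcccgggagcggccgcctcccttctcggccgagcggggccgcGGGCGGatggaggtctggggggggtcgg

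The 6 promoters had a median of 75.3% G and C, beside a median of 65.7% over the promoters of 10354 tested genes. CKAP4 was the highest at 83%, and ZNF213, at 57.3%, was the 1 below the median of tested genes. Their ratio of observed to expected CpG lay between 0.898 in LDLRAD3 and 0.968 in FBXW5, beside a median of 0.837 over those 10354. A GC box was found in 5 of 6, all but ZNF213, and in 70.3% of promoters of tested genes, and a CCAAT box in 2 of 6 (ZNF213 and FBXW5) and in 36.2%. A TATA box (TATAAA), an E-box (CACGTG), a cAMP response element (TGACGTCA) and an AP-1 site (TGACTCA) were each found in 0 of 6, and in 5.5%, 10.1%, 3.13% and 3.07% of the promoters of tested genes. The motifs were searched on both strands, and none overlapped another in the sequences shown. In the longest protein-coding transcript of each gene (GENCODE release 29), G and C made up 44.1% (TMEFF1) to 65.7% (FBXW5) of bases, with a median of 58.2% beside 48.9% over 12720 tested genes, and SNX30 (45.9%), TMEFF1 and LDLRAD3 (47.3%) were below that level. Transcript lengths had a median of 3203 bases, beside 3470 over tested genes. The genes lie on chromosomes 9 (SNX30, TMEFF1 and FBXW5), 11, 12, 16 (ZNF213 and SBK1) and 17.

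Total counts were 25546400 to 28987900 reads per library, and 14481 genes had at least 10 reads in at least 2 libraries and were tested. All 8 genes passed that filter. The epithelial genes EPCAM, KRT8 and KRT18 were detected in all 6 libraries, at 22.6 CPM (reads scaled to a common library size, on the TMM scale) or more. The epithelial gene CDH1 was at 7.7 and 6.92 CPM with siRNA 2 and siRNA 4 in A427, against 7.64 CPM with the control siRNA, and at 102 and 14.1 CPM in HCC15, against 19.5 CPM. Of the markers of other cells, the endothelial gene PECAM1 had 0 or 1 read per library. The leukocyte gene PTPRC was at 2.75 to 3.63 CPM in A427 and had 0 reads in HCC15, and the fibroblast gene COL1A1 was at 14.7 to 30.1 CPM. The part of these genes in the results below was not tested.

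LGR6 itself had 0 reads with siRNA 2 and 0 with siRNA 4 in A427, against 5 with the control siRNA. By library size alone, without TMM, a count of 0 allows a level of up to 0.117 CPM (3 reads of the total) in the siRNA 2 library. For the siRNA 4 library this was 0.115 CPM, against a measured 0.176 CPM in the control library on the same scale. In HCC15 it had 39 reads with siRNA 2 and 77 with siRNA 4, against 257 with the control siRNA. The level left in HCC15 was 0.14 of the control with siRNA 2 (95% counting interval 0.0972 to 0.197) and 0.307 with siRNA 4 (0.235 to 0.398). The fold intervals here and below are exact binomial intervals on the read counts of a pair of libraries and cover counting error only. HCC15 thus had LGR6 RNA to lose and A427 very little, and each line had 1 control siRNA library, with none without siRNA among those analysed. A loss of LGR6 and a release from an effect of the control siRNA therefore cannot be told apart from the rise over control alone, and the values in A427 and HCC15 are given side by side below.

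CKAP4, the most abundant of the 8 by reads, showed the pattern in full. It was at 131 CPM with siRNA 2 and 112 CPM with siRNA 4 in A427, against 30.6 CPM with the control siRNA. In HCC15 it was at 215 CPM with siRNA 2 and 177 CPM with siRNA 4, against 32.6 CPM with the control siRNA. All 4 LGR6 siRNA libraries lay far above both control libraries, which were alike. In A427 this was 4.27-fold with siRNA 2 (95% counting interval 3.96 to 4.6) and 3.64-fold with siRNA 4 (3.38 to 3.93). In HCC15 it was 6.59-fold with siRNA 2 (6.14 to 7.09) and 5.43-fold with siRNA 4 (5.05 to 5.85). These intervals leave out any spread between cultures.

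The remaining membrane and secreted proteins gave smaller folds or rested on fewer reads. LDLRAD3 was at 18.6 CPM with siRNA 2 and 19.3 CPM with siRNA 4 in A427, against 6.95 CPM with the control siRNA. HCC15 cells had 23.2 and 19.5 CPM, against 7.49 CPM with the control siRNA. Its levels were close in the lines in every arm, with folds of 2.67, 2.77, 3.1 and 2.61 in A427 siRNA 2, A427 siRNA 4, HCC15 siRNA 2 and HCC15 siRNA 4. METRNL was at 11.3 CPM with siRNA 2 and 11.2 CPM with siRNA 4 in A427, against 3.7 CPM with the control siRNA. HCC15 cells had 6.28 and 3.16 CPM, against 0.951 CPM with the control siRNA, which held 25 reads. The A427 control library was above the HCC15 siRNA 4 library, so METRNL separated the arms within each line and not across them.

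TMEFF1 had the fewest reads, and its rise depends on how reads were divided between gene models. It was at 1.98 CPM with siRNA 2 and 2.25 CPM with siRNA 4 in A427, against 0.616 CPM with the control siRNA (52, 62 and 18 reads). The HCC15 levels were 1.23 and 1.09 CPM, against 0.152 CPM with the control siRNA (35, 28 and 4 reads). The folds of 3.22 and 3.65 in A427 and 8.07 and 7.17 in HCC15 had wide counting intervals, the HCC15 siRNA 2 interval running from 2.88 to 31.2. The read-through gene MSANTD3-TMEFF1 shares exons with it and held most of the reads at the locus. With siRNA 2, siRNA 4 and the control siRNA it held 258, 184 and 215 estimated reads in A427, and 401, 301 and 295 in HCC15. When both models were summed, the level was 1.48-fold (siRNA 2) and 1.12-fold (siRNA 4) that of the control in A427, and 1.34-fold and 1.13-fold in HCC15. TMEFF1 made up 16.8% and 25.2% of the summed reads with siRNA 2 and siRNA 4 in A427, against 7.57% with the control siRNA, and 8.08% and 8.49% in HCC15, against 1.4% with the control siRNA. TMEFF1 is therefore uncertain as a gene of higher total RNA at its locus.

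**Figure D1:**
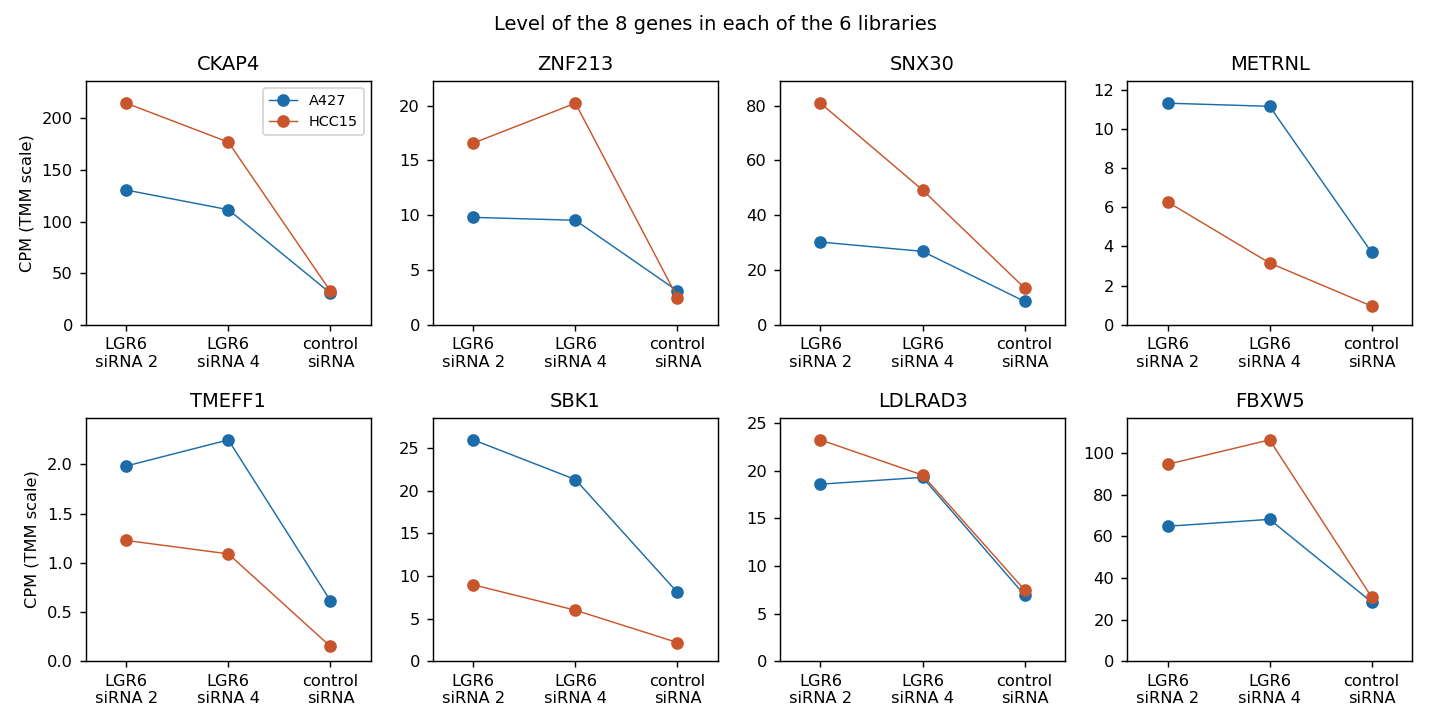
Level of each gene (CPM on the TMM scale, linear axis from 0) in the libraries of LGR6 siRNA 2, LGR6 siRNA 4 and control siRNA, with blue points for A427 and orange points for HCC15. Each point is 1 library; CKAP4 runs from 30.6 CPM in the A427 control library to 215 CPM in the HCC15 siRNA 2 library, and in every gene and line the control library is the lowest of the 3.

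Of the intracellular proteins, SNX30 followed CKAP4 in A427 but parted the siRNAs in HCC15. It was at 30.2 CPM with siRNA 2 and 26.8 CPM with siRNA 4 in A427, against 8.53 CPM with the control siRNA. In HCC15 it was at 80.9 CPM with siRNA 2 and 49.2 CPM with siRNA 4, against 13.4 CPM with the control siRNA. The folds were 3.54 and 3.14 in A427, and 6.03 and 3.67 in HCC15. FBXW5 was at 64.8 and 68.1 CPM with siRNA 2 and siRNA 4 in A427, against 28.5 CPM with the control siRNA, and at 94.5 and 106 CPM in HCC15, against 30.9 CPM. Its folds, from 2.28 with siRNA 2 in A427 to 3.44 with siRNA 4 in HCC15, were steady and precise, the widest counting interval being 3.18 to 3.73.

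SBK1, the kinase, was more abundant in A427. It was at 26 CPM with siRNA 2 and 21.3 CPM with siRNA 4 in A427, against 8.08 CPM with the control siRNA, and at 8.98 and 6 CPM in HCC15, against 2.21 CPM. The A427 control library lay between the HCC15 LGR6 siRNA libraries, so the arms separated only within a line. ZNF213 was at 9.8 CPM with siRNA 2 and 9.53 CPM with siRNA 4 in A427, against 3.08 CPM with the control siRNA. The HCC15 levels were 16.6 and 20.2 CPM, against 2.47 CPM with the control siRNA. Its folds of 3.18 and 3.09 in A427 and 6.71 and 8.18 in HCC15 differed most between the lines with siRNA 4. Per length, in deposited TPM, the control levels in HCC15 and A427 were 27.4 and 27.1 for FBXW5, 22.2 and 22.4 for CKAP4, 1.63 and 6.78 for METRNL and 5.23 and 5.2 for LDLRAD3. They were 0.89 and 3.49 for SBK1, 3.5 and 2.38 for SNX30, 1.55 and 2.07 for ZNF213, and 0.13 and 0.55 for TMEFF1, so FBXW5 and CKAP4 led in either line.

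Over the 8 genes, the fold above control in A427, the line with 5 LGR6 reads in its control library, ran from 2.28 to 4.27 with siRNA 2 (median 3.2) and from 2.39 to 3.65 with siRNA 4 (median 3.06). In HCC15 it ran from 3.06 to 8.07 with siRNA 2 (median 6.31) and from 2.61 to 8.18 with siRNA 4 (median 3.55). On deposited TPM the ranges were 2.32 to 4.35 and 2.4 to 3.71 in A427, and 3.29 to 8.62 and 2.49 to 7.83 in HCC15, close to those on CPM.

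**Figure D2:**
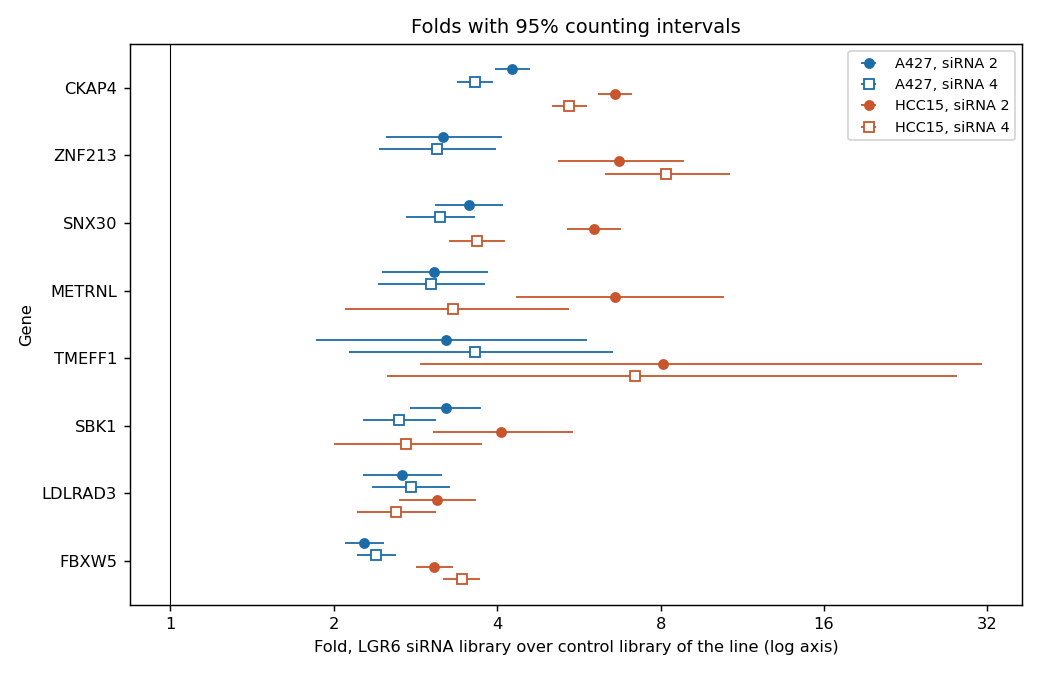
Fold of each LGR6 siRNA library over the control library of its line (log axis), with exact 95% counting intervals as bars. Filled circles are siRNA 2 and open squares siRNA 4, blue A427 and orange HCC15; all 32 points lie above 2-fold, and the TMEFF1 intervals in HCC15 are the widest.

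In the fit over both lines, CKAP4 stood at a log2 fold change of 2.4 with siRNA 2 (SE 0.17) and 2.14 with siRNA 4 (SE 0.17), the values that chose it. Higher expression at an adjusted p under 0.05 was found for 2.96% of tested genes with siRNA 2, 4.58% with siRNA 4 and 1.43% (207 genes) with both (edgeR quasi-likelihood test, Benjamini-Hochberg). Lower expression was found for 4.66%, 7.95% and 1.07%. The number higher with both fell when any single library was left out, whether control or LGR6 siRNA. It fell most without the HCC15 control library. The number higher with each siRNA also fell without a library of that siRNA. Without the HCC15 control library 1 gene was higher with siRNA 2 (429 with all libraries), 12 with siRNA 4 (663 with all) and 1 with both, and without the A427 control library 47, 88 and 31 were. Without an LGR6 siRNA library the count higher with both was 63 to 151, lowest without the HCC15 siRNA 2 library. Among the 205 of these 207 with a mean of at least 1 CPM, ranked by the smaller of both log2 fold changes, the 8 genes held ranks 1 to 3, 6, 7 and 9 to 11, from ZNF213 at 2.18 to FBXW5 at 1.40. CXCL3 (1.81), FKBP4 (1.80) and RHEB (1.58) ranked among them and are not of the 8, and the first genes below FBXW5 were C9orf69 (1.39), TXNIP (1.37) and C1orf122 (1.31). By the smallest of the 4 single-library log2 ratios the same 8 were again among the first 11, with CKAP4 first at 1.86, while CXCL3 had a ratio of -0.46 in one library. A ratio of at least 1 on the log2 scale in all 4 libraries was found for 19 of 14481 genes, the 8 among them. The comparisons with siRNA 2 and siRNA 4 share their control libraries.

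**Figure D3:**
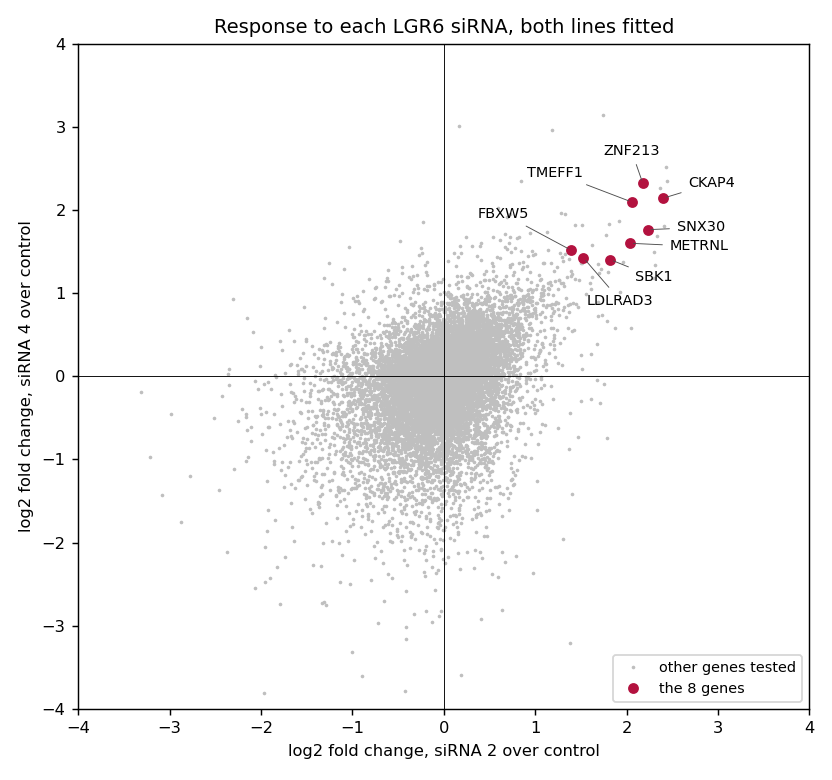
Log2 fold change over the control siRNA with siRNA 2 (x axis) and with siRNA 4 (y axis), from the fit of line plus siRNA, for tested genes (grey points) and the 8 genes (red points). The axes leave out 13 of 14481 genes that lie beyond 4 in size; the lowest value of the 8 genes on either axis is 1.40, that of FBXW5 with siRNA 2.

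The contrast of siRNA 4 with siRNA 2 sets the LGR6 siRNA libraries against each other, not against a control library. It asks whether the reagents raised the 8 genes unequally, in the same libraries whose high values chose the 8. Of the 8, 0 passed, where 16.5% of all tested genes did (2395 genes, edgeR, Benjamini-Hochberg). Among the 199 other genes higher with both siRNAs, 12 passed. Choosing genes high with both siRNAs favours a small difference between them, so the count for the 8 is not independent of the choice. Of the 8, 5 were lower and 3 higher with siRNA 4. SNX30 stood at -0.47 on the log2 scale (SE 0.18, adjusted p 0.123 by edgeR with Benjamini-Hochberg adjustment), SBK1 at -0.41 (SE 0.17, 0.142), METRNL at -0.43 (SE 0.27, 0.301) and CKAP4 at -0.26 (SE 0.16, 0.313). LDLRAD3 was at -0.10, ZNF213 at 0.14, FBXW5 at 0.12 and TMEFF1 at 0.038, with adjusted p of 0.614 to 0.947 in edgeR (Benjamini-Hochberg). These p-values do not show that the siRNAs acted alike. The 95% interval of the ratio of siRNA 4 to siRNA 2 was 0.649 to 1.08 for CKAP4 and 0.484 to 1.13 for METRNL. For SNX30 it was 0.54 to 0.97 and for SBK1 0.57 to 0.989, both below 1, without adjustment over genes. Within HCC15 alone, METRNL with siRNA 4 was at 0.503 of its siRNA 2 level (95% counting interval 0.382 to 0.657), SNX30 at 0.608 (0.567 to 0.652) and SBK1 at 0.669 (0.544 to 0.82). In A427 they were at 0.986 (0.838 to 1.16), 0.887 (0.801 to 0.982) and 0.821 (0.734 to 0.918). FBXW5 and ZNF213 went the other way in HCC15, at 1.12 (1.07 to 1.19) and 1.22 (1.07 to 1.38). Without the A427 siRNA 2 library, SNX30 passed (-0.77, adjusted p 0.0298, edgeR), and without the HCC15 siRNA 2 library it was at -0.12 (0.76, edgeR). Over the 13 alternatives METRNL ran from -1.02 to -0.0044, CKAP4 from -0.41 to -0.083 and SBK1 from -0.59 to -0.28, with 0 of them passing.

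How the response differed between lines was measured by setting HCC15, the line with more LGR6, against A427. All 8 genes had a larger log2 response in HCC15, by 0.067 (LDLRAD3) to 1.25 (ZNF213), with a median of 0.57. It was larger for 6 of 8 on log2(TPM + 1), where SBK1 was at -0.24 and TMEFF1 at -0.10, and for 6 of 8 without the HCC15 siRNA 2 library, where SBK1 was at -0.11 and LDLRAD3 at -0.063. With siRNA 4 alone the LDLRAD3 fold was smaller in HCC15 (2.61) than in A427 (2.77). Among the 199 other genes higher with both siRNAs the response was larger in HCC15 for 64.3%, with a median difference of 0.084, and among all tested genes for 50.1%. None of the 8 passed, and 0% of all genes did. That is 0 genes in edgeR, with 78 at an unadjusted p under 0.05, and 0 in DESeq2 and in limma on log2(TPM + 1). The difference was 1.25 for ZNF213 (SE 0.46), 0.60 for CKAP4 (SE 0.36) and 0.48 for FBXW5 (SE 0.33), each with an adjusted p of 1.0 in edgeR (Benjamini-Hochberg). Its 95% interval for CKAP4, as a ratio of folds, ran from 0.808 to 2.86, so a larger response in either line was within it. The genes were selected on a fit over the same libraries of both lines, so this contrast is not independent of the choice.

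**Figure D4:**
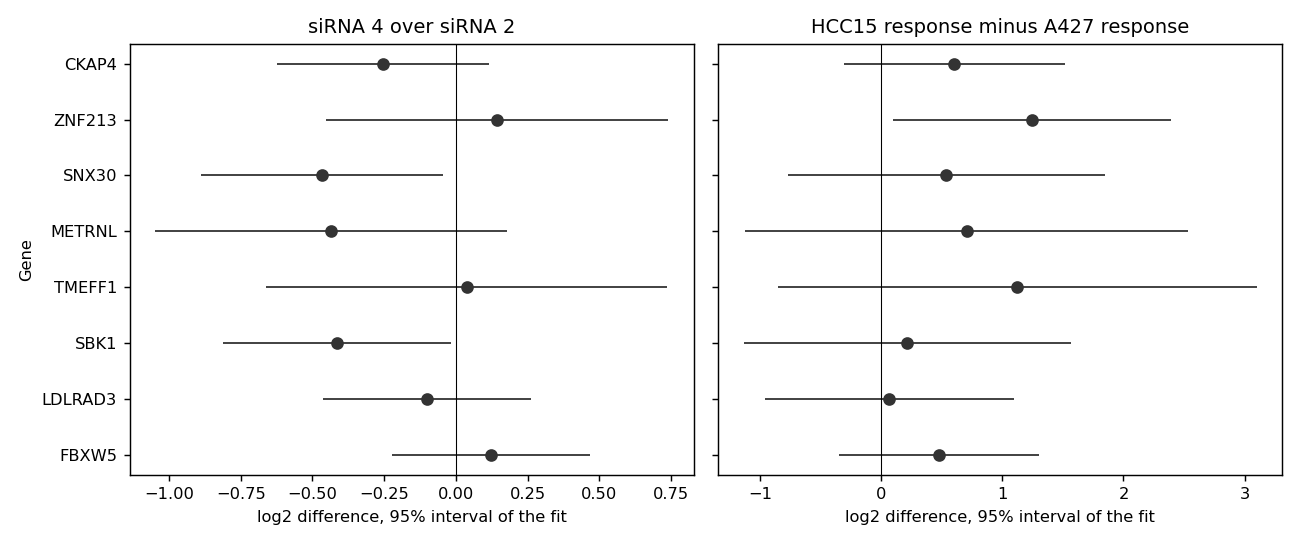
Log2 difference between siRNA 4 and siRNA 2 (left) and between the response in HCC15 and that in A427 (right) for each gene, with the 95% interval of the edgeR fit as bars and a line at 0. On the left 5 genes lie below 0 and 3 above, and the intervals of SNX30 and SBK1 lie wholly below 0. On the right all 8 lie above 0 in this fit (6 of 8 on log2(TPM + 1) or without the HCC15 siRNA 2 library), and the intervals of 7 cross 0.

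The level of most of the 8 genes also differed between the lines in the fit over all arms, which includes the LGR6 siRNA libraries that chose them. By edgeR with Benjamini-Hochberg adjustment 7 of 8 passed between HCC15 and A427, near the 76.5% of all tested genes that did. SBK1 was lower in HCC15 by a log2 difference of -1.72 (SE 0.15, adjusted p 1.21e-05) and METRNL by -1.42 (SE 0.24, 0.000632), and SNX30 was higher by 1.01 (SE 0.16, 0.000389, edgeR). These 3 passed under all 13 alternatives. TMEFF1 was lower by -0.99, and ZNF213 (0.66), CKAP4 (0.50) and FBXW5 (0.44) were higher, with adjusted p of 0.00803 to 0.0295 in edgeR (Benjamini-Hochberg). ZNF213 passed under 5 of 13 alternatives, TMEFF1 under 8 of 12, and CKAP4 and FBXW5 under 11 of 13. CKAP4 lost its call without the A427 siRNA 2 library (0.39, adjusted p 0.0507) or the HCC15 siRNA 2 library (0.39, 0.052, edgeR), and FBXW5 without the A427 siRNA 4 library (0.34, 0.0625) or the HCC15 siRNA 2 library (0.39, 0.051, edgeR). LDLRAD3 did not pass (0.15, adjusted p 0.323, edgeR). With the control siRNA alone, CKAP4 in HCC15 was 1.06 of its A427 level (95% counting interval 0.968 to 1.17), LDLRAD3 1.08 (0.881 to 1.32), FBXW5 1.09 (0.984 to 1.2) and ZNF213 0.802 (0.574 to 1.12). METRNL, TMEFF1 and SBK1 were at 0.257, 0.247 and 0.273 of their A427 level, and SNX30 was at 1.57. For CKAP4, FBXW5 and ZNF213 the interval with the control siRNA included 1. Their higher fitted level in HCC15 thus rests mainly on the LGR6 siRNA libraries.

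Genes with the pattern most like CKAP4 were sought by the distance between log2 ratios to control over the 4 LGR6 siRNA libraries, among genes with a mean of at least 10 CPM. These ratios measure the same rise over control by which CKAP4 and the genes grouped with it were chosen. A ratio of at least 1 in all 4 libraries was found for only 19 of 14481 genes. The nearness of the grouped genes to CKAP4 is therefore a description and not independent of the choice. The 5 nearest were SNX30 (distance 0.69), ZNF213 (0.76), FKBP4 (1.04), an HSP90 co-chaperone gene, RHEB (1.40), which encodes an activator of mTORC1, and SBK1 (1.42). FKBP4 was at 684 and 557 CPM with siRNA 2 and siRNA 4 in A427, against 200 CPM with the control siRNA, and at 458 and 578 CPM in HCC15, against 128 CPM. With genes from 1 CPM upwards, TMEFF1 (0.68) and METRNL (1.0) took the places of RHEB and SBK1, so 3 of 5 were shared.

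Related genes were followed in lists chosen by function. Of 9 ligands, partners and modifying enzymes of CKAP4, 6 were tested and 1 passed, beside 1.43% of all tested genes that were higher with both siRNAs. This was ZDHHC2, the palmitoyl transferase that acts on CKAP4. It rose with both siRNAs, to 344 and 360 CPM in A427, against 263 CPM with the control siRNA, and to 50 and 41.2 CPM in HCC15, against 24 CPM. The log2 fold changes were 0.70 with siRNA 2 (SE 0.16, adjusted p 0.0363) and 0.60 with siRNA 4 (SE 0.16, 0.0472, edgeR). Its call was lost without either control library, without the HCC15 library of the siRNA in question and, for siRNA 4, without its A427 library (adjusted p up to 0.448, edgeR). The CKAP4 ligand genes DKK1 and DKK3 did not pass. DKK1 was at 990 and 999 CPM with siRNA 2 and siRNA 4 in A427, against 1098 CPM with the control siRNA, and at 65.8 and 50.7 CPM in HCC15, against 48.7 CPM. DKK3 was at 2.1 and 2.28 CPM in A427, against 6.16 CPM, and at 19.8 and 6.82 CPM in HCC15, against 15.2 CPM. Its log2 fold changes were -0.29 with siRNA 2 (SE 0.37) and -1.32 with siRNA 4 (SE 0.41, adjusted p 0.0703, edgeR). The list's median log2 fold change was 0.24 with siRNA 2 and 0.10 with siRNA 4, beside -0.014 and -0.0052 for all tested genes.

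Of 20 genes that shape ER sheets and tubules, all tested, 0 were higher with either siRNA, 1 was lower with siRNA 2 and 4 with siRNA 4, and 6 were lower with siRNA 4 than with siRNA 2. Over all tested genes 2.96% and 4.58% were higher with siRNA 2 and with siRNA 4, and 4.66% and 7.95% lower, and between siRNA 4 and siRNA 2 8.84% were lower and 7.7% higher. With those shares, 0 higher genes in a list of this length is near the background. ATL3, a tubule-fusing GTPase gene, fell by 0.60 with siRNA 2 (SE 0.15, adjusted p 0.0463) and by 0.99 with siRNA 4 (SE 0.15, 0.00569, edgeR). It lost the first call without either control library or the HCC15 siRNA 2 library, and the second without the HCC15 control library. ARL6IP1 and REEP5, both tubule-shaping genes, were lower with siRNA 4 than with siRNA 2, by -0.93 (SE 0.14, adjusted p 0.00412) and -0.67 (SE 0.12, 0.00878, edgeR). The sheet proteins KTN1 and RRBP1, which like CKAP4 sit in rough ER, did not pass, with log2 fold changes of 0.090 and 0.26 for siRNA 2 and -0.24 and -0.039 for siRNA 4. The list's medians were -0.0012 and -0.25.

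Of 30 sorting nexins and partners of SNX30, 27 were tested, with 1 higher and 1 lower with both siRNAs, beside 1.43% and 1.07% of all tested genes. SNX15 rose by 0.58 with siRNA 2 (SE 0.15, adjusted p 0.0489) and 0.77 with siRNA 4 (SE 0.15, 0.0137, edgeR). SNX18, which bends membranes in endocytosis, fell by 1.56 (SE 0.15, 0.00287) and 0.96 (SE 0.14, 0.00561, edgeR). SNX18 was at 23.8 and 35.9 CPM with siRNA 2 and siRNA 4 in A427, against 62.6 CPM with the control siRNA, and at 17.8 and 27.3 CPM in HCC15, against 58.9 CPM. Its calls were lost without the HCC15 control library and, for siRNA 4, without the HCC15 siRNA 4 library. SNX15 lost its calls without either control library and without the A427 library of the siRNA in question, and for siRNA 2 also without its HCC15 library. SNX4, the partner of SNX30, did not pass, at -0.032 and -0.068. With siRNA 4 alone 3 further genes were lower. Between siRNA 4 and siRNA 2, SNX10 (-0.61, SE 0.13, adjusted p 0.0162) and SNX12 (-0.57, SE 0.12, 0.0164, edgeR) were lower. SNX17 was lower as well (-0.50, adjusted p 0.0223), and SNX18 was higher (0.61, adjusted p 0.0271, edgeR), so 4 of 27 passed beside 16.5% of all tested genes.

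Of 15 FBXW family and ubiquitin ligase subunit genes, 14 were tested and 0 were higher with either siRNA, near the background of 2.96% with siRNA 2 and 4.58% with siRNA 4. Lower were 2 with siRNA 2, 1 with siRNA 4 and 1 with both, beside 4.66%, 7.95% and 1.07% of all tested genes. CUL4B, a cullin scaffold gene, fell by 0.96 with siRNA 2 (SE 0.16, adjusted p 0.0125) and by 1.0 with siRNA 4 (SE 0.16, 0.00689, edgeR), and both calls were lost without either control library, the second also without the HCC15 siRNA 4 library. CUL4A fell by 0.96 with siRNA 2 (SE 0.15, adjusted p 0.00964, edgeR) and was at 0.049 with siRNA 4, so that it was higher with siRNA 4 than with siRNA 2 (1.01, SE 0.15, 0.00408, edgeR). BTRC, another substrate receptor gene, was lower with siRNA 4 than with siRNA 2 (-0.50, SE 0.13, adjusted p 0.0371, edgeR). Of 5 genes for reported FBXW5 substrates, 0 were higher with either siRNA, also near the background of higher genes. DLC1 and SEC23B were lower with siRNA 4, at -1.16 (SE 0.14, adjusted p 0.00249) and -0.57 (SE 0.12, 0.0225, edgeR), beside 7.95% of all tested genes.

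The LDL receptor list held genes of that family and of LDLRAD3 partners. Of its 17 tested genes, 3 were higher with siRNA 2 (LRP5, SORL1 and APP). With siRNA 4, 1 was higher (LRP12) and 1 lower (NEDD4), and 0 passed the threshold in the same direction with both. The shares over all tested genes were 2.96% higher with siRNA 2, and 4.58% higher and 7.95% lower with siRNA 4. With both siRNAs 1.43% were higher and 1.07% lower. NEDD4, a ubiquitin ligase gene, and SORL1 were lower with siRNA 4 than with siRNA 2, by -0.96 (SE 0.12, adjusted p 0.0023) and -1.01 (SE 0.15, 0.00427, edgeR). Of 45 tested genes with a SCAN domain, the family of ZNF213, 0 passed the threshold in the same direction with both siRNAs. With siRNA 2, 1 was lower (ZKSCAN8), and with siRNA 4, 1 was higher (ZSCAN26) and 1 lower (ZNF24). Over all tested genes 4.66% were lower with siRNA 2, and the other shares are those given for the LDL receptor list. ZKSCAN8 was higher (0.80, SE 0.12, adjusted p 0.0053) and ZNF24 lower (-0.89, SE 0.14, 0.00533, edgeR) with siRNA 4 than with siRNA 2. The list's median was -0.025 with siRNA 2 and 0.22 with siRNA 4. Among 5 tested relatives and partners of METRNL, TMEFF1 and SBK1, 1 was higher with both, beside 1.43% of all tested genes. This was PVRL1 (NECTIN1), an adhesion protein gene, at 0.90 with siRNA 2 (SE 0.15, adjusted p 0.014) and 0.68 with siRNA 4 (SE 0.16, 0.0268, edgeR). The calls were lost without either control library, without the HCC15 library of the siRNA in question and, for siRNA 4, without its A427 library. KIT, a receptor kinase gene, was lower with siRNA 4 than with siRNA 2 (-1.04, SE 0.20, adjusted p 0.0102, edgeR). METRN, the closest relative of METRNL, did not pass, at 0.15 and -0.43.

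On each side of the 8 genes, the nearest gene in RefSeq order with a row in the tables was taken as a neighbour. Genes without a row were passed over. This gave 15 neighbours, of which 8 had enough reads to test. MSANTD3-TMEFF1, which was tested, overlaps TMEFF1, and SLC46A2 and MIR3973, which were not, overlap SNX30 and LDLRAD3. Higher expression was found for 0 of the 8 tested neighbours with either siRNA, near the background of 2.96% and 4.58% of tested genes. Lower expression was found for 2 with siRNA 2, 1 with siRNA 4 and 1 with both, beside 4.66%, 7.95% and 1.07%. NUAK1, a kinase gene beside CKAP4, was lower with both, at -0.81 with siRNA 2 (adjusted p 0.0292) and -0.93 with siRNA 4 (0.0124, edgeR), calls that were lost without either control library and without the HCC15 library of the siRNA in question, and for siRNA 2 also without its A427 library. TCP11L2, on the other side of CKAP4, was at -1.36 with siRNA 2 (adjusted p 0.0247, edgeR) and -0.036 with siRNA 4. It was at 3.51 and 8.95 CPM with siRNA 2 and siRNA 4 in A427, against 9.45 CPM with the control siRNA. In HCC15 it was near the floor, at 0.21 and 0.429 CPM, against 0.342 CPM, so its call rests mainly on A427. ZNF205 beside ZNF213 was at -0.012 and 0.12, and TRIM44 beside LDLRAD3 at -0.073 and -0.015.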

How the data were processed

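RNA from 6 libraries was sequenced after column purification with DNase and mRNA library preparation (KAPA mRNA HyperPrep), per the labels' protocols. FastQC 0.11.1, STAR 2.5.3a, RSEM 1.3.3 and hg19 are named in the submitters' processing notes. Annotation and strand setting were not given in the sources used here. Per gene, the authors deposited expected counts, of which 5.75% to 6.29% per library were not whole, and TPM. Expected counts were rounded. The 14481 genes that reached 10 reads in 2 or more libraries were scaled by TMM and fitted with edgeR 4.0.16 (glmQLFit, glmQLFTest, R 4.3.3), with Benjamini-Hochberg adjustment over all genes and a threshold of 0.05. The fit of line plus siRNA, and for the difference between the lines that of line by arm, each left 2 residual degrees of freedom. CPM are on the TMM scale unless said otherwise, and log2 ratios between libraries have 0.1 CPM added. The fits were also run on simulated counts in which all libraries shared a mean profile, apart from the changes put in, and a fixed dispersion. The siRNA effects did not otherwise disagree between lines there, so that run does not bear on the p-values above.

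The siRNA numbers mark reagents and the line pairs the libraries. DESeq2 1.42.0, other scaling and filters, limma 3.58.1 on TPM, and leaving out each library were tried as alternatives. The members and lists were chosen with earlier results of these data known. Besides the members and LGR6, genes were named by rule: up to 4 per list past the threshold with both siRNAs, then 2 between the siRNAs (taken by smallest adjusted p, an order set later), list members highest in level where none passed, read-through genes, the 5 nearest CKAP4, the next 3 in rank, and neighbours past the threshold. DKK1, DKK3, KTN1, RRBP1, SNX4, METRN, SNX17, CDH1, the genes of the LDL receptor and SCAN lists past with 1 siRNA and the remaining neighbours were named after their values were seen. Protein features were not analysed here. Sequences are from RefSeq and GENCODE on GRCh38, and no coordinate was carried over to hg19.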

Additional observations from a re-analysis of the deposited data

How the results depend on the processing

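Each of the 8 genes was higher than control with both siRNAs under every alternative that tested it and within each line alone. The 8 were chosen by that rise in these same libraries, so the shared direction is a description and no support for it. With a library left out, genes past the threshold numbered 4 to 1340 with siRNA 2 (1104 with all libraries) and 118 to 2076 with siRNA 4 (1814), the lowest without the HCC15 control library. Between siRNA 4 and siRNA 2 they numbered 646 to 2126 (2395 with all), the lowest without the HCC15 siRNA 4 library. Limma on log2(TPM + 0.1) gave 678 with siRNA 2 and 1145 with siRNA 4. On log2(TPM + 1) the share of higher calls was 51.2% with siRNA 2, against 38.9% in edgeR, and 35.8% between the siRNAs, against 46.6%. Small differences between the siRNAs changed sign: with a library left out they ran from -0.29 to 0.25 for TMEFF1, -0.23 to 0.035 for LDLRAD3, -0.25 to 0.46 for ZNF213 and -0.032 to 0.27 for FBXW5. TMEFF1 was at -0.035 and -0.084 on the TPM scales and -0.17 within HCC15, and in A427 ZNF213 was at -0.040 and LDLRAD3 at 0.055. The difference between the lines ran from -0.11 to 0.47 for SBK1 and -0.063 to 0.18 for LDLRAD3 with a library left out, and on log2(TPM + 1) was -0.10 for TMEFF1 and -0.24 for SBK1. A replicate block on the siRNA number gave 0 genes for it, as without. It could not be fitted without a control library. The cause of these changes was not tested. Of genes nearest CKAP4, 3 of 5 were shared at the lower level minimum. TMEFF1 had 4 to 62 reads per library, which gave its wide counting intervals, and its fold also depends on the division of reads with MSANTD3-TMEFF1.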
